A study of Drosophila melanogaster with 3 samples.

Results

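Among the Psq binding sites mapped in whole fly larvae, 1513 lay in introns at a short distance from a transcription start site (TSS). The authors' optimal peak list for the dm6 genome was taken, and a peak was kept if its summit lay inside a gene span, in no annotated exon, and more than 500 and at most 2000 bp from the nearest TSS of any gene. Of the 10138 peaks in that list, 10105 lay on the nuclear chromosome arms, and the close intronic peaks made up 15.0% of these. Annotation decided membership, and no score entered beyond the authors' own threshold. The peaks are compared with 1826 intronic peaks at a middle distance from a TSS (over 2000 to 10000 bp) and with 4458 promoter peaks (summit within 500 bp of a TSS).

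Chromatin immunoprecipitation and sequencing (ChIP-seq) was run on Drosophila melanogaster at the wandering stage of the third larval instar, as whole animals of both sexes pooled, of unknown age. The single group consists of 3 biological replicates of 1 transgenic line, psq-GFP, which stably expresses Psq with GFP (eGFP in another label) at its C-terminal end. The precipitation used an antibody against GFP, and all tissues of the animal contribute to 1 signal, so a site in few cells and a weak site in many cannot be told apart. Sonication left fragments of 200 to 300 bp for replicate 1. Those for replicates 2 and 3 ran from 175 to 275 bp and from 175 to 250 bp. A line without the tag was not analysed here. Read numbers are not part of the peak lists, so depth is unknown. The replicates gave 28037, 28294 and 24291 peaks before thresholding, and the 10138 highest-scoring of each were used.

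Pipsqueak (psq) encodes nuclear proteins with a BTB domain, through which such proteins bind one another, and with Psq-type helix-turn-helix repeats that contact GA-rich DNA. Psq acts together with the GAGA factor, the product of Trl, and has been tied to Polycomb and trithorax regulation, to the growth of the retina and to oogenesis. In flies, introns near the start of a gene often carry enhancers and alternative promoters, and the wandering larva is the stage at which the steroid hormone ecdysone starts metamorphosis.

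The DNA under the strongest of these peaks shows that a GA word was common but not always there. The windows below are centred on the summit, read 5′ to 3′ on the plus strand of dm6, with GAGAG and its reverse complement CTCTC in capitals and all other bases in lower case. The first 5 come from the peaks with the highest scores off the arm that also carries psq. They are shown because the stretches printed range from no GA word to 3. Each stretch is shorter than the window of 100 bp on either side of the summit used for counts. In that longer window the Rga peak had 1 GA word and the upSET peak none. The next comes from the peak of the Hus1-like intron, where no GA word stood within 100 bp of the summit either. The final pair hold long runs of alternating G and A and were picked for them.
upSET intron, chr3L:14002880-14003000: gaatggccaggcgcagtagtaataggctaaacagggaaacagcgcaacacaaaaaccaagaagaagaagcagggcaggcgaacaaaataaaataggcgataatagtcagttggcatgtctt
brat intron, stronger peak, chr2L:19136493-19136613: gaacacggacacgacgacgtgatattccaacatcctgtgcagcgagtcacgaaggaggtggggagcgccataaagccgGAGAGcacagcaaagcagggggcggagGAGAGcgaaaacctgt
Rga intron, chr3R:5611320-5611440: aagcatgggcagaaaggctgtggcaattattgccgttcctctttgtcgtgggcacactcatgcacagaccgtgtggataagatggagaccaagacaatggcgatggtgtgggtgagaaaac
MEP-1 intron, chr3L:2632764-2632884: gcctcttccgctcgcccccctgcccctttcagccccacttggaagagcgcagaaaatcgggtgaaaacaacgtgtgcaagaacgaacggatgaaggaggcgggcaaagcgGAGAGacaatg
brat intron, weaker peak, chr2L:19136992-19137112: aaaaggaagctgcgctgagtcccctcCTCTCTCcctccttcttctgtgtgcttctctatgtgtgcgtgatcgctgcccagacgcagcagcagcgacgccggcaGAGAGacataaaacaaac
Hus1-like intron, chr3R:4810099-4810219: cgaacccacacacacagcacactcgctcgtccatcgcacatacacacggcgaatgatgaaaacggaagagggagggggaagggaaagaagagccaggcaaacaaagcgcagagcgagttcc
rdx intron, chr3R:13983819-13983939: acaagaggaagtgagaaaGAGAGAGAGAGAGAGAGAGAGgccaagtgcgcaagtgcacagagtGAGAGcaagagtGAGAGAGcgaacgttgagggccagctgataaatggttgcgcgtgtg
Hipk intron, chr3L:544225-544345: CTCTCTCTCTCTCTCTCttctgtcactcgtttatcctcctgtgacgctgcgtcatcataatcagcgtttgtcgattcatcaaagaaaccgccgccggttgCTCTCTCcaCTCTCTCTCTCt
A score is the authors' value for 1 peak in 1 list and has no stated unit. The upSET peak had a score of 3020, the brat peaks 2977 and 2333, the Rga peak 2649.7 and the MEP-1 peak 2533. The pair picked for long runs scored lower, 285 in rdx and 378 in Hipk, but above the median of 187 of all 1513 peaks. The gene rdx encodes a BTB protein of a ubiquitin ligase and Hipk a protein kinase. Alternating runs of 10 bp or more were more common in the highest of 5 parts of the peaks by score (9.57%) than in the lowest (2.65%).

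Taken as a whole, close intronic DNA carried more Psq peaks per length than intronic DNA at the middle distance from a TSS. The DNA that a summit could occupy under the rule, called eligible DNA here, came to 11.4 Mb, which is 8.54% of the arms. It held 128, 130.5 and 133 peaks per Mb in replicates 1, 2 and 3, and the middle-distance DNA (24.2 Mb) held 73.3, 72.0 and 74.2. Every replicate of the close DNA was above every replicate of the middle-distance DNA. The densities averaged 130.4 ± 2.23 and 73.2 ± 1.10 peaks per Mb (SD, n = 3), and the difference of 57.2 ± 2.05 was positive in 3 of 3 replicates (2-sided exact sign-flip permutation test over replicates, p = 0.25; 0.321 after Benjamini-Hochberg adjustment over the 9 differences tested). Over the 5000 highest peaks of each replicate, a shorter list, the difference was 34.6 ± 0.843. Not every part of the close DNA was above the middle-distance mean. Its later introns, first in no transcript, held 66.2 ± 1.50 peaks per Mb. Its DNA nearest to a TSS without a promoter peak held 45.1 ± 1.34 (SD, n = 3). Middle-distance DNA was not divided in these ways. With 3 replicates the permutation test cannot go below 0.25, so no difference here can reach 0.05. Peaks themselves are not replicates and enter no test.

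Within the band the density fell with distance, as the plot of summits by distance shows. In steps of 500 bp it was 166 ± 4.55, 113 ± 1.25 and 101.4 ± 3.64 peaks per Mb (SD, n = 3). The first step held 163, 164 and 171 per Mb in replicates 1, 2 and 3, above every replicate of the other steps. The median distance of the 1513 peaks was 1006 bp. Just inside lay a peak of Diap1 at 502 bp (3L:16047313-16047402, score 153) and a peak of tacc at 505 bp (3R:4739026-4739107, score 186). At the outer limit, peaks of sli at 2000 bp (score 145) and Mur2B at 1997 bp (score 171) were inside. The peaks just outside had scores of 269 and 119 at the inner limit, and of 371 and 152 at the outer one.

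**Figure D1:**
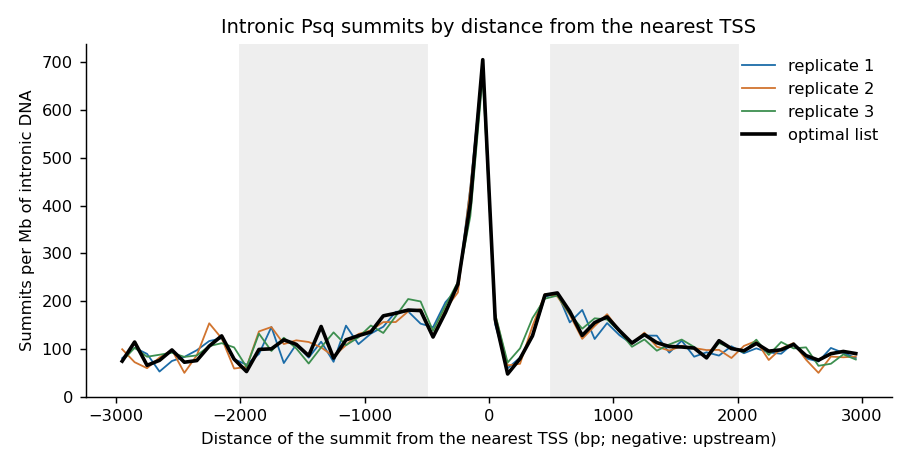
Summits per Mb of intronic DNA (vertical axis) in bins of 100 bp by distance from the nearest TSS in bp (horizontal axis, negative upstream), for each replicate and for the optimal list; the band of the close intronic peaks is shaded. Over both sides the density falls within the band, from 166 ± 4.55 per Mb in its innermost 500 bp to 101.4 ± 3.64 in its outermost.

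First introns held most of these peaks. Of the 1513, 1244 (82.2%) lay in the first intron of at least 1 transcript, while such introns made up 64.5% of the eligible DNA. The share was 82.1%, 81.8% and 82.0% in replicates 1, 2 and 3, and exceeded that of the DNA by 17.5 ± 0.176 percentage points (SD, n = 3; exact sign-flip permutation p = 0.25, adjusted 0.321). First introns held 166 ± 2.72 peaks per Mb and later introns 66.2 ± 1.50, a ratio of 2.50 ± 0.0296 (SD, n = 3). In the 3 steps of distance, from the nearest outwards, the ratio was 2.33 ± 0.0654, 2.59 ± 0.0983 and 2.39 ± 0.0160, so the excess was present at each distance.

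Most close intronic peaks sat near a TSS that also had a Psq promoter peak. For 1125 of the 1513 (74.4%), the nearest TSS also had a summit within 500 bp in the same list. In replicates 1, 2 and 3 that share was 73.8%, 75.9% and 75.3%, against 27.7%, 28.1% and 27.2% of the eligible DNA near such a TSS. The difference was 47.3 ± 1.08 percentage points (SD, n = 3; positive in 3 of 3, exact sign-flip permutation p = 0.25, adjusted 0.321). The density was 353 ± 12.8 peaks per Mb near a TSS with a promoter peak and 45.1 ± 1.34 near one without. The intronic peak scored above the promoter peak at 402 of the 1125 sites. A promoter summit of the same called region as the intronic summit also counted, and such cases were not counted apart.

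First introns had the higher density whether or not the nearest TSS had a promoter peak. Near a TSS with a promoter peak, first introns held 387 ± 15.7 peaks per Mb and later introns 247 ± 11.4, a ratio of 1.57 ± 0.0906 (SD, n = 3). Near a TSS without one, they held 58.8 ± 4.07 and 24.4 ± 2.79, a ratio of 2.45 ± 0.454. First introns were higher in 3 of 3 replicates in both settings.

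The peaks lay upstream and downstream of the TSS in about the proportions of the DNA. Of the 1513, 981 lay downstream of the nearest TSS (64.8%), as did 64.5% of the eligible DNA. Over the replicates the share differed from that of the DNA by 0.889, −0.632 and −0.192 percentage points, a mean of 0.0217 ± 0.782 (SD, n = 3; exact sign-flip permutation p = 1, adjusted 1). The sign differed between replicates, and with 1 TSS per gene the difference was 6.70 ± 0.308. Among the 532 upstream peaks, the nearest TSS was another start of the host gene for 350 and the start of a different gene for 182, and among the downstream peaks it was the host's own for 907.

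Genes with alternative starts held most of these sites. The peaks fell in 891 host genes and near 1165 TSS positions, and 1476 peaks (97.6%) had a protein-coding host. Hosts with more than 1 TSS held 1144 peaks (75.6%). Of all 13945 protein-coding genes, 9005 with eligible DNA and the rest without, 26.5% have more than 1. Genes with more than 1 TSS also have more DNA near a TSS, and its part in the share of peaks was not tested. The exon-free stretch around the summit had a median length of 3152 bp, and 1051 peaks (69.5%) had another optimal peak within 1000 bp. That share was not computed for all peaks or for other classes, so it marks no trait of this class. Some of these neighbours are another summit of the same called region, as in Eip74EF. Most hosts had 1 peak (564 genes), 195 had 2, 61 had 3 and 71 had 4 or more.

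The number of peaks per host reached 14. Tlk, which encodes Tousled-like kinase, held these 14, of which 13 lay in a first intron and 10 had GAGAG. The Schnurri gene shn, a zinc finger factor of the Dpp pathway, held 11, and kis, a chromatin remodeller of the trithorax group, held 10. The Notch coactivator gene mam held 9, of which 2 lay in a first intron. The Tec-family kinase gene Btk, the RNA-binding protein gene Syp and psq itself held 8 each. The growth regulator brat, the apoptosis inhibitor Diap1 and the ecdysone receptor EcR were hosts to 7 each. These genes also have long eligible DNA, from 5.25 kb in Diap1 to 17.7 kb in Tlk.

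Scores of close intronic peaks were above those of middle-distance peaks. The median score was 55.3, 77.6 and 64.1 in replicates 1, 2 and 3, against 46.2, 67.8 and 57.7 at the middle distance, and the score scale itself differs between lists. Within each replicate the log2 ratio of the medians was 0.26, 0.20 and 0.15, a mean of 0.20 ± 0.0541 (SD, n = 3; exact sign-flip permutation p = 0.25, adjusted 0.321). Over the 5000 highest peaks the mean was 0.10 ± 0.0433. Against promoter peaks the log2 ratio was 0.04, −0.05 and −0.08, with a mean of −0.03 ± 0.0647 (SD, n = 3; exact sign-flip permutation p = 0.5, adjusted 0.562). Those signs were mixed, and 3 of the alternative settings turned the mean positive: 0.08 with 1 TSS per gene, 0.01 with an outer limit of 1500 bp and 0.15 over the 5000 highest peaks. In the optimal list the scores of close intronic peaks ran from 90.5 to 7485 with a median of 187. Of the 100 highest nuclear peaks, 29 were close intronic, 33 promoter and 22 middle-distance peaks. Over all 10105 nuclear peaks the numbers were 1513 (15.0%), 4458 and 1826.

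Support by single replicates was near that of all peaks. A strong peak, meaning a summit within 200 bp among the 10138 highest of the replicate, was found in all 3 replicates for 911 of the 1513 (60.2%), against a background of 58.3% of all nuclear optimal peaks. It was found in 2 replicates for 339, in 1 for 207 and in none for 56. The optimal list was itself called from the 3 replicates, so their support is no independent check of it. Support followed score: of 5 parts of the peaks ordered by score, the highest had 100% and the lowest 9.93%.

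The strongest close intronic peak lay in psq itself. For comparison across replicates, scores were divided by the median of that replicate's 10138 highest peaks (relative score). The psq peak (dm6 2R:10558619-10559191, in a first intron 1076 bp downstream of a psq TSS) had relative scores of 42.8, 41.3 and 39.1 in replicates 1, 2 and 3, or 41.1 ± 1.88 (SD, n = 3). It was the highest of all nuclear peaks and held 4 GAGAG within 100 bp of its summit. The transgene may add copies of psq DNA, and their part in these values was not tested. The other 7 psq peaks had relative scores from 0.506 ± 0.256 to 7.22 ± 0.512 (SD, n = 3), and the second of them (2R:10559379-10560044) lay in the same intron. With the psq locus left out, 1505 peaks remained and each of the 9 differences tested had the same direction.

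The other 19 of the 20 highest peaks found in all 3 replicates are given by the roles of their host genes, beginning with 5 in genes for chromatin or RNA-binding and RNA decay proteins. The upSET peak (3L:14002697-14003176), in a gene for a SET-domain chromatin protein, had relative scores of 17.3, 16.8 and 17.4, or 17.2 ± 0.324. Rga, a subunit of the CCR4-NOT deadenylase, had values of 12.4, 12.9 and 17.1 at 3R:5611154-5611608, or 14.1 ± 2.59. MEP-1, a zinc finger partner of the remodeller Mi-2, reached 13.8, 15.5 and 11.8 at 3L:2632515-2633228, or 13.7 ± 1.85. The kis peak (2L:220380-220802) had values of 11.8, 9.91 and 9.27, or 10.3 ± 1.32, and its nearest TSS belonged to lncRNA:CR44220. For how, an RNA-binding protein needed in muscle and tendon, they were 9.10, 8.47 and 9.55 at 3R:22043879-22044402, or 9.04 ± 0.543 (SD, n = 3 for each). The upSET replicates lay within 1 unit of each other, while Rga was highest in replicate 3 and MEP-1 lowest there.

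A pair of these peaks lay in 1 intron of brat, a translational repressor that limits growth and neural stem cell division. The stronger (2L:19136202-19136795) had relative scores of 19.2, 17.0 and 14.8, or 17.0 ± 2.20, and the weaker (2L:19136862-19137258) had 11.5, 12.2 and 14.0, or 12.6 ± 1.27 (SD, n = 3). The order of the pair was the same in each replicate, and the gap was narrowest in replicate 3. The nearest TSS to both was that of Polr1D, a subunit of RNA polymerases I and III, 1320 and 1819 bp away.

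A further 6 of the peaks lay in genes for kinases, a phosphatase subunit, a kinase anchor and a receptor. Sik3, a salt-inducible kinase of lipid storage, had relative scores of 11.9, 12.2 and 11.9 at 2R:18689787-18690317, or 11.99 ± 0.163. The Btk peak (2L:8299421-8299834) had 13.1, 11.4 and 10.1, or 11.5 ± 1.52, and the Tlk peak (X:3780846-3781300) had 10.9, 8.66 and 9.98, or 9.86 ± 1.14. Akap200, an anchor for protein kinase A, stood at 11.1 ± 1.10 with 8 GAGAG and a GA run of 16 bp, and tws, a regulatory subunit of protein phosphatase 2A, at 10.2 ± 0.823. The receptor gene N (Notch) had 9.44, 9.66 and 8.33 at X:3136299-3136740, or 9.14 ± 0.710, also with 8 GAGAG and a run of 16 bp (SD, n = 3 for each). These peaks differed from each other by less than a factor of 2, and the spread of many of them overlapped.

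The remaining genes of the 20 had varied roles. Pepck2, an enzyme of gluconeogenesis, had relative scores of 13.8, 15.4 and 14.3 at 2R:18528696-18529144, or 14.5 ± 0.834. CG10543 stood at 12.9 ± 0.622, the ubiquitin ligase gene ctrip at 12.7 ± 2.02, the Rab regulator Gdi at 9.08 ± 0.630, and sima, the fly homologue of the hypoxia-inducible factor alpha subunit, at 9.04 ± 0.364 (SD, n = 3). Hus1-like, of the DNA damage checkpoint clamp, had the widest spread, with 2.03, 9.03 and 7.80 at 3R:4809829-4810450, or 6.29 ± 3.74 (SD, n = 3). Replicate 1 was the low one there, and the nearest TSS had no promoter peak for either Hus1-like or ctrip.

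**Figure D2:**
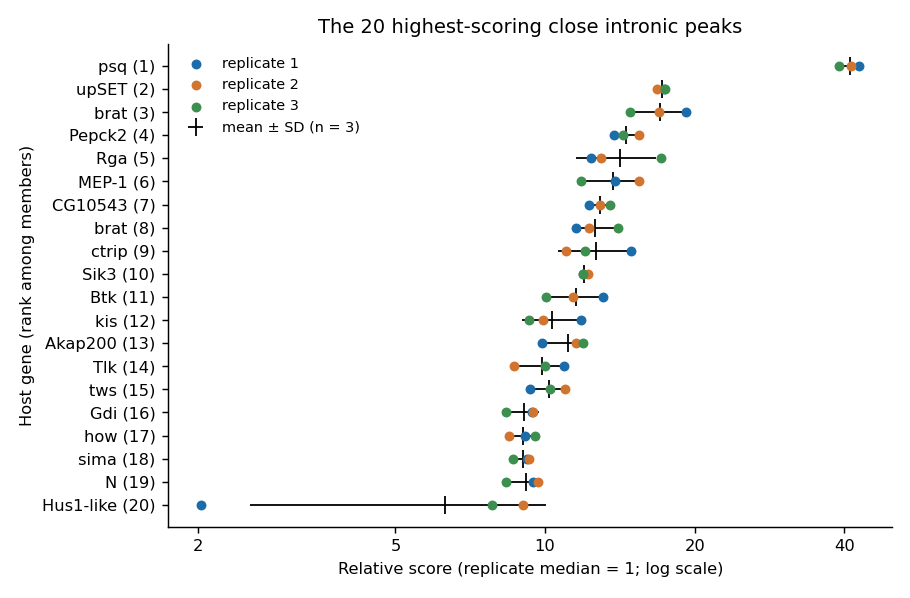
Relative score (horizontal axis, log scale, median of the replicate list set to 1) of the 20 highest close intronic peaks found in all 3 replicates, by host gene with the rank among the 1513 in parentheses; points are replicates, ticks and bars the mean ± SD. psq stands apart at 41.1 ± 1.88, and Hus1-like has 1 low replicate at 2.03.

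A GA-rich word was more common at these sites than at middle-distance or promoter peaks, the only other classes measured. GAGAG, searched on both strands within 100 bp of the summit, was present at 798 of the 1513 (52.7%), against a background of 45.3% of all nuclear optimal peaks. Shares in replicates 1, 2 and 3 were 52.7%, 53.1% and 53.3% for close intronic peaks, 43.2%, 44.0% and 44.9% for middle-distance peaks and 43.4%, 43.5% and 44.7% for promoter peaks. The close intronic values lay above all others. The word was also present in 21.0% of the 56745 windows of 201 bp that tile the eligible DNA.

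The differences in GAGAG share, 3 in all, were positive in every replicate. The close intronic share exceeded that of the eligible windows by 32.1 ± 0.305 percentage points, that of middle-distance peaks by 9.03 ± 0.547 and that of promoter peaks by 9.20 ± 0.502 (SD, n = 3; exact sign-flip permutation p = 0.25 each, adjusted 0.321). With 1 TSS per gene the difference from promoter peaks was 16.4 points. Base composition differed between peaks and windows more than between classes of peaks. The median GC content was 47.8% at close intronic peaks, 48.3% at middle-distance peaks and 47.3% at promoter peaks. In the windows it was 39.8%. Within bands of GC content the difference from the windows was smaller than the 32.1 points over all GC contents, between 22.99 and 28.2 points in the 5 bands. At 45 to 50% GC, 54.9% ± 1.91 of peaks (SD, n = 3) and 26.7% of windows had the word, and across the bands the shares ranged from 38.4% to 58.7% and from 15.4% to 31.7%.

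**Figure D3:**
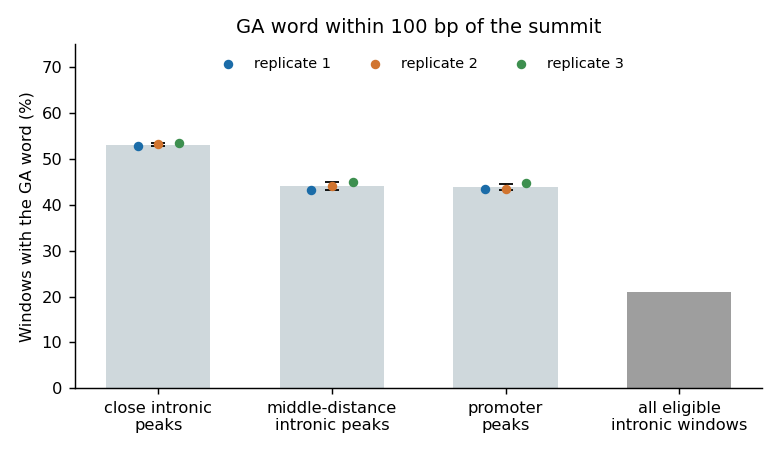
Share of windows of 201 bp with the GA word (vertical axis, percent) for the 3 classes of Psq peaks and for all windows of the eligible DNA; bars are means, error bars SD and points the 3 replicates, and the windows have no replicates. The close intronic peaks stand at 53.1% ± 0.305, above both other classes and the windows at 21.0%.

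The word was densest at the summit itself. Within 20 bp of it, close intronic peaks held 8.27, 9.19 and 8.65 GAGAG per kb and peak in replicates 1, 2 and 3, or 8.70 ± 0.464, and 2.69 ± 0.0505 at 200 to 300 bp on either side (SD, n = 3). Middle-distance peaks held 5.83 ± 0.660 at the centre and promoter peaks 6.47 ± 0.256, both below every close intronic replicate. In the flanks the classes lay closer, at 2.40 ± 0.0341 and 2.27 ± 0.0395. Runs of alternating G and A of 10 bp or more occurred at 100 close intronic peaks (6.61%) and in 0.807% of the windows, and the longest was 33 bp. Such runs were not counted at other classes of Psq peaks.

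**Figure D4:**
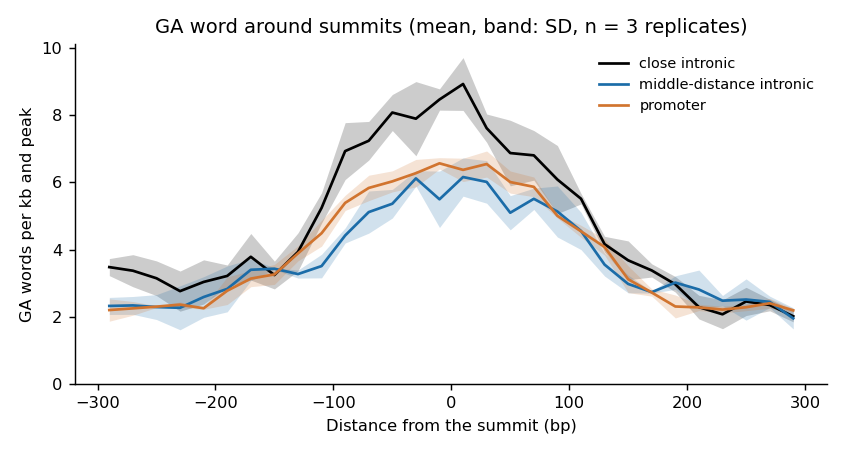
Occurrences of the GA word per kb and peak (vertical axis, on both strands) by distance from the summit in bp (horizontal axis, bins of 20 bp); lines are means and bands SD over 3 replicates. Close intronic peaks reach 8.70 ± 0.464 at the centre, above middle-distance and promoter peaks.

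The word followed score, and in first introns also distance. With the 1513 peaks divided into 5 parts by score, 66.3% of the highest part had GAGAG, and the next parts had 59.1%, 53.5%, 44.7% and 40.1%. Among the 50 highest, 39 had it. By distance the share was 56.9% ± 2.31, 51.7% ± 2.01 and 46.2% ± 1.65 in the 3 steps of 500 bp from the nearest outwards (SD, n = 3), while the windows stayed between 20.6% and 21.5%. In first introns the share was 58.3% ± 2.72, 51.7% ± 2.35 and 45.4% ± 1.48. Later introns showed no such fall, at 49.7% ± 0.658, 52.0% ± 0.728 and 49.2% ± 5.75 (SD, n = 3). Over all introns the outermost step lay near the 44.0% ± 0.839 of middle-distance peaks. The share of peaks whose nearest TSS had a promoter peak also ran with score, from 86.5% in the highest part to 67.2% in the lowest. Median GC content did too, from 50.2% to 45.8%, and its part in the fall of GAGAG with score was not tested.

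The word was not evenly split between strands. Of its occurrences within 100 bp of the summits, 40.5%, 40.5% and 42.5% read GAGAG on the strand of the host gene in replicates 1, 2 and 3, or 41.2% ± 1.17 (SD, n = 3), and 46.7% did so in the eligible windows. All 3 replicates lay below the windows. The shares are of occurrences and not of peaks, so a peak with many words counts many times. Between arms the GAGAG share ran from 46.5% ± 1.22 on 2R to 57.2% ± 0.232 on X, apart from arm 4, which had 1 close intronic peak in the optimal list and no word there.

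Of the other words searched, CACACACA and AACCGGTT were, like GAGAG, more frequent than in the windows and at both other classes. Promoter words were most frequent at promoter peaks. CACACACA was present at 20.3% ± 0.249 of close intronic peaks, 15.0% ± 0.512 of middle-distance peaks, 13.8% ± 0.367 of promoter peaks and 4.93% of the windows (SD, n = 3). GAGAGAGA, which overlaps GAGAG, was present at 11.5% ± 0.700 against 1.52% of the windows. It was also above the windows at middle-distance peaks (7.54% ± 0.481) and promoter peaks (8.30% ± 0.0995) (SD, n = 3). TATCGATA, the core bound by the promoter factor DREF, was present at 0.469% ± 0.109 of close intronic peaks and 0.426% of windows, but at 5.70% ± 0.174 of promoter peaks. GGTCACAC, a core promoter motif of broadly expressed genes, had a share of 0.492% ± 0.0965, against 5.09% ± 0.160 at promoter peaks. In the windows its share was 0.284% and at middle-distance peaks 0.113% ± 0.00170, both below the close intronic share in 3 of 3 replicates. CGATA stood at 20.7% ± 0.346 against 34.1% ± 0.562 at promoter peaks (SD, n = 3 for each). AACCGGTT, which matches the Grainyhead site, was found at 1.50% ± 0.0774 of close intronic peaks, 1.26% ± 0.0696 of middle-distance peaks and 0.368% of windows. CAGGTAG, the Zelda site, was found at 1.77% ± 0.246 and in 1.01% of windows (SD, n = 3), above the windows in 3 of 3 replicates, as AACCGGTT was. At middle-distance peaks CAGGTAG stood at 2.11% ± 0.117, and the close intronic share was above that in 1 of 3 replicates. The E-box CACGTG stood at 2.46% ± 0.419 against 2.34% of windows, above them in 2 of 3 replicates. The Pho core GCCAT stood at 32.2% ± 1.60 against 34.0%, and a run of 8 A at 11.9% ± 1.07 against 13.1%, both below the windows in 3 of 3 replicates (SD, n = 3 for each). A word in a window is a match of letters and shows no factor there.

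Genes of the ecdysone response and the BTB family were often hosts. Over all protein-coding genes with eligible DNA, 10.1% (914 of 9005) held a close intronic peak within their span, and the density was 133 peaks per Mb of their eligible DNA. The 23 gene lists hold well-studied and often long genes, so the count and the density are both given, and no test was run over genes. These lists were chosen with earlier results of these data known. Some genes belong to several lists, as br and chinmo to both the ecdysone and the BTB list, and their peaks count in each. Of 24 genes of the ecdysone response and its nuclear receptors, 13 held a peak (52.8% ± 2.41 over replicates, SD, n = 3), at 336 per Mb. Its 2 highest peaks lay in Mur2B, a mucin gene inside the span of the ecdysone-induced factor br, at 6.20 ± 1.07 (X:1616647-1617732), and in the ETS factor gene Eip74EF at 6.79 ± 1.08 (3L:17577434-17578431). EcR, the coactivator gene tai and the receptors Eip75B, Hr4, Hr39 and Hnf4 were also hosts. Of 17 genes for BTB or Psq-domain factors, 10 held a peak, at 548 per Mb, and 492 with psq left out (9 of 16 genes).

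Trl, the gene of the GAGA factor, was among them with 6 peaks, of which 5 had GAGAG. Its highest (3L:14759123-14759468) had relative scores of 4.00, 4.04 and 5.23 in replicates 1, 2 and 3, or 4.42 ± 0.702 (SD, n = 3). The next (3L:14756306-14756713) had 2.45, 0.459 and 2.70, or 1.87 ± 1.23, with replicate 2 low. Of the other 4, 1 had a matched summit in all replicates (1.39 ± 0.537) and 3 in a pair of them (0.808 to 2.29). lola, ttk, chinmo, fru, ken, rib and mod(mdg4) were further hosts of this family.

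Chromatin genes were hosts at differing rates. Of 27 genes for corepressors and chromatin factors, 10 held a peak (38.3% ± 2.14, SD, n = 3), at 592 per Mb, among them Smr, CtBP, Sin3A, Mi-2 and HDAC4. Of 32 Polycomb and trithorax group genes 5 did (17.7% ± 1.80), namely Psc, ph-p, osa, kis and skd, at 633 per Mb, the highest density of the 23 lists. In this list 10 of their 22 peaks lay in kis, the second of them at 7.59 ± 1.54 (2L:246585-247193). Of 11 insulator genes 1 did, mod(mdg4) at 1.67 ± 0.999, a share near the background, with 1 peak in 5.49 kb (182 per Mb).

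In the Notch pathway 7 of 17 genes held a peak, at 400.3 per Mb. They were the receptor N, whose second peak (X:3135652-3135941) stood at 5.67 ± 0.987, its ligand Delta, the protease gene kuz, the coactivator mam, and neur, fng and numb. In the Dpp and activin pathway it was 8 of 19 genes at 462 per Mb, including the ligand dpp, the receptors tkv, put and wit, the effector Mad, and shn, with its highest peak at 4.72 ± 0.712. The coactivator nej, the fly CBP, reached 4.19 ± 0.578 there. In the EGFR and FGF pathway 8 of 20 genes were hosts at 368 per Mb, with Raf, the kinase, at 3.55 ± 0.491 and spi, the ligand, at 3.38 ± 0.393 (SD, n = 3 for each).

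In the Wingless pathway 9 of 21 genes held a peak, at 242 per Mb, with the receptor fz2 at 5.15 ± 0.948 and the glypican dlp at 2.99 ± 0.824. Insulin and TOR genes were hosts in 8 of 21 cases at 331 per Mb. The insulin receptor InR stood at 5.24 ± 1.02 (3R:21618307-21618667), with 9 GAGAG, and Akt, foxo, S6k and Thor were also hosts. JAK-STAT and JNK genes had 5 hosts of 16 at 210.3 per Mb, with kay, the fly Fos, at 6.65 ± 0.153 and the inhibitor Socs36E at 3.14 ± 0.184. Hippo and planar polarity genes had 9 of 22 at 195 per Mb, with ex at 4.41 ± 0.844 and Tgi at 3.05 ± 0.428. Hedgehog genes had 2 of 10, the receptor ptc (0.528 ± 0.197, n = 3) and the co-receptor boi (0.746 ± 0.375, n = 2), at 144 per Mb, near the density of all genes (SD, n = 3 unless stated).

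Cell cycle and neural regulators were frequent hosts, and few patterning genes were. Of 20 cell cycle and growth genes 9 held a peak, at 523 per Mb, among them brat, CycE, E2f1, stg and Cdk4, but over single replicates the share was 33.3% ± 2.89 (SD, n = 3). Of 24 zinc finger, bHLH and other neural factors 11 did (255 per Mb), with lola at 5.23 ± 1.20 and the neuronal RNA-binding protein gene elav at 3.86 ± 0.814. Of 41 homeobox and segment patterning genes 2 did, hry (0.578 ± 0.105) and hth (0.509 ± 0.315), at 26.7 per Mb, below the density of all genes and with relative scores under 1. Of 32 selector genes for retina, wing and leg 5 did, at 70.2 per Mb, but over single replicates the share was 7.29% ± 1.80, below the background. Their highest peaks lay in nub, at 1.16 ± 0.0185 (n = 2), and bi, at 0.715 ± 0.136 (SD, n = 3 unless stated).

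Structural and terminal genes were mixed. Cell adhesion and axon guidance genes had 9 hosts of 40 at 58.3 per Mb, with Sema1a at 5.58 ± 0.339 and the netrin receptor gene unc-5 at 1.95 ± 0.486. Ion channels and synaptic genes had 3 of 35 at 37.7 per Mb, with the potassium channel KCNQ at 1.91 ± 0.910 and a peak shared by rg and CG15465 at 0.710 ± 0.297. Muscle and cytoskeleton genes had 5 of 26 at 149 per Mb, with the spectraplakin shot at 5.90 ± 0.419 and the actin regulator ena at 2.99 ± 0.895. Metabolic genes had 7 of 26 at 163 per Mb, with Pepck2 first and the phosphatidate phosphatase Lpin at 3.63 ± 1.08 (SD, n = 3 for each). None of 14 ribosomal protein genes with eligible DNA (3.48 kb) and none of 41 chemosensory receptor genes (20.4 kb) held one, and these lists offer little such DNA.

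**Figure D5:**
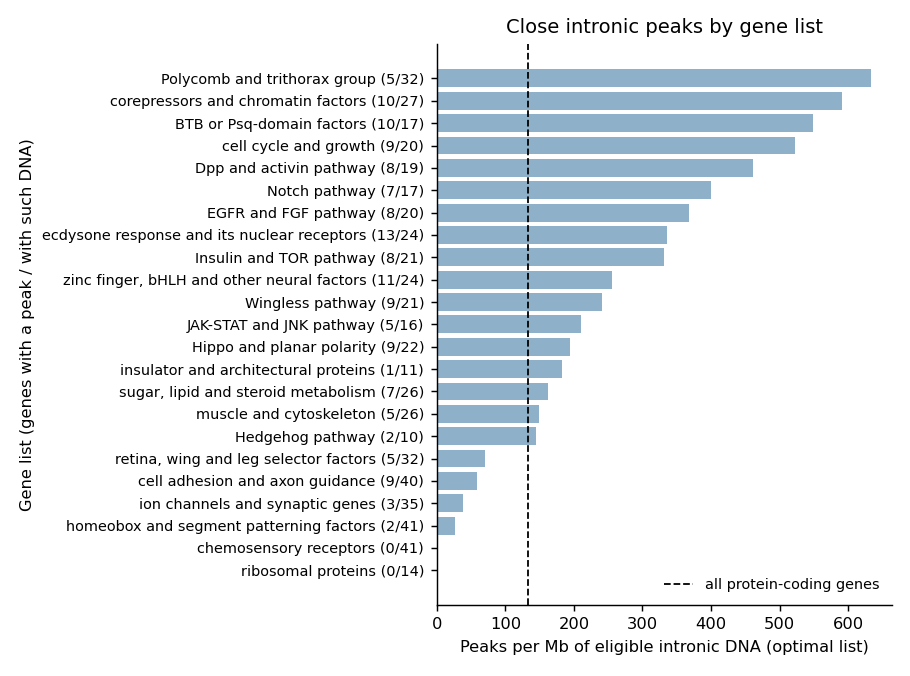
Close intronic peaks of the optimal list per Mb of eligible intronic DNA (horizontal axis) for 23 gene lists, with the number of genes that hold a peak and of genes with such DNA in parentheses; the dashed line marks all protein-coding genes, 133 per Mb. Chromatin, BTB and growth lists stand highest, and homeobox, ion channel, adhesion and selector lists lie below the line.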

How the data were processed

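ChIP-seq peaks of Psq-GFP were analysed in 3 biological replicates of 1 group, so comparisons are between classes of sites within each replicate. The deposited file listing states that the authors called peaks in each replicate and in the 3 combined, always with the same 1 control alignment, and thresholded the optimal list by the irreproducible discovery rate. The sources used here do not name the peak caller, the aligner or any read filter. The deposited score per peak is the authors' own value and served for ranks and descriptions inside 1 list. Summit positions came from the summit offset the authors deposited. The depth per sample is unknown, so the absence of a peak means only that none was called.

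Genes were those of Ensembl release 115 on dm6 without transposable elements, and sequence was the RefSeq copy of that assembly. Each replicate contributed its 10138 highest peaks on the same footing as the optimal list, and replicate scores were taken from the nearest summit within 200 bp. Where spans overlapped, 1 host gene was counted per peak, but lists counted every span. Differences were tested over replicates with exact sign-flip permutation (2-sided) and Benjamini-Hochberg adjustment over 9. Calculations used Python 3.11.15, numpy 2.4.6, pandas 2.3.3 and scipy 1.17.1, and class assignment and word search were checked on simulated data. Named peaks were the 20 highest found in all replicates, the 2 highest per gene list, those of psq and Trl, and those nearest the limits. Hosts named without a value are further genes of a list. Of the listed names, 21 matched through a synonym and ban did not match. The sites, gene lists and words were chosen with earlier results of these data known. Alternatives covered the TSS set, distance limits, list length, the psq locus, word window, match distance and left-out replicates. The lists on dm3 and the unthresholded pooled list were not used.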

Additional observations from a re-analysis of the deposited data

How the results depend on the processing

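The settings tried were TSSs of protein-coding genes only, 1 TSS per gene, an inner limit of 300 bp, an outer limit of 1500 bp, the 5000 highest peaks, the psq locus left out, other word windows and each replicate left out in turn. RefSeq in place of Ensembl was added after seeing the data, and 1512 of the 1513 peaks stayed close intronic under it. The number of peaks was 767 among the 5000 highest and otherwise between 1189 and 1810. Differences in density, score against middle-distance peaks, GAGAG share, promoter peak at the nearest TSS and first introns kept their sign in all settings. Their ranges were 34.6 to 65.4 peaks per Mb, 0.10 to 0.23 on the log2 scale, 23.2 to 39.7 points against windows, 6.19 to 10.6 against middle-distance peaks, 6.30 to 16.4 against promoter peaks, 44.9 to 51.9 points and 16.6 to 22.7 points. The score against promoter peaks changed sign, to 0.0835 with 1 TSS per gene, 0.00973 with an outer limit of 1500 bp and 0.15 over the 5000 highest peaks. The downstream share, near 0 as reported, was −0.31 points over the 5000 highest peaks and between −0.41 and 0.35 with a replicate left out (−0.41 without replicate 1), and at most 6.70, with 1 TSS per gene. The cause of these changes was not tested. All 20 named top peaks kept their relative scores within 1 SD with a match distance of 100 bp. With 2 replicates the smallest possible p is 0.5. Each difference was taken within a replicate, and with a single group there was no pairing of replicates across groups.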
